A study of Mus musculus with 12 samples.

Results

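Genes of the mitotic spindle, the kinetochore and their control were examined in germ cells of female mouse embryos at embryonic day 13.5. The 45 members were taken by symbol from a list of mitotic genes, and all 45 were among the 12516 genes of the deposited expression table. All embryos, in both groups, had the genotype Gulo-/- (C57BL/6 background). Without this gene mice cannot make vitamin C, because it codes for the enzyme of the final synthetic step, and they depend on the diet. Vitamin C was withdrawn during the first 2 weeks of gestation for 6 embryos, and 6 other embryos came from mothers kept supplied with it at a physiological level. RNA was sequenced from sorted Oct4-positive germ cells of single embryos, and the comparison asks what maternal vitamin C does to transcription in these cells. The labels do not say which embryos shared a mother.

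During mitosis, cyclin B with the kinase Cdk1 drives entry, kinetochores attach chromosomes to spindle microtubules, and the spindle checkpoint delays anaphase until the attachments are complete. The anaphase-promoting complex, a ubiquitin ligase, then releases the sister chromatids, and the central spindle directs cytokinesis. Many of these genes are transcribed late in the cell cycle from promoters that carry CCAAT boxes, bound by NF-Y, and a CHR (cell cycle genes homology region), bound by complexes that hold B-Myb or E2F4. Female germ cells divide by mitosis until about this age and then enter meiosis, in which they use much of the same machinery.

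Promoters of the members are shown first because many of them hold these elements, though not all. RefSeq promoter windows of build GRCm38.p6, from 250 bases before to 50 after the start, were matched for 40 members, 45 windows in all. Aurkb, Ccna2, Incenp, Kif20a and Tpx2 were not matched. The 120 bases before the start are printed 5′ to 3′ for the 5 members of smallest adjusted p among those higher in withdrawn embryos and matched, and for Cdk1 and Plk1, which were not called. Capitals mark a CHR (TTTGAA on either strand, or TTCGAA) or a CCAAT box (on either strand), which were searched separately and may overlap.
Cdca5: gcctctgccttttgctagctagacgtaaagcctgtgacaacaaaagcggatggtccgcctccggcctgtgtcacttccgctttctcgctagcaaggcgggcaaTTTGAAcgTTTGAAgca
Nusap1: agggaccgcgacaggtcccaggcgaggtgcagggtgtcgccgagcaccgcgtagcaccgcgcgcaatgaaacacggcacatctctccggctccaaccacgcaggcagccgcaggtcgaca
Aurka: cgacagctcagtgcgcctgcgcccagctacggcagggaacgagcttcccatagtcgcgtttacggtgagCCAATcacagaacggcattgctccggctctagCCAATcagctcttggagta
Ccnb1: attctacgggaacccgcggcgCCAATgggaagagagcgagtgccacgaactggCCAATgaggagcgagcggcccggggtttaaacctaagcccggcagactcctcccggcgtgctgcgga
Bub3: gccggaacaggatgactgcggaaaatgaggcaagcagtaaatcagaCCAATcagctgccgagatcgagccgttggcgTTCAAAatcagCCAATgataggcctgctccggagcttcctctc
Cdk1: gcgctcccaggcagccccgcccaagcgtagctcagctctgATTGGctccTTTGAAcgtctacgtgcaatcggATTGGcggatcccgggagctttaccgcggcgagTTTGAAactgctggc
Plk1: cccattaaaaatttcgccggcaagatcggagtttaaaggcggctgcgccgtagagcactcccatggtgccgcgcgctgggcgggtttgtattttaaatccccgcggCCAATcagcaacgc

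These stretches lie at chr19:6084977-6085096 on the plus strand for Cdca5, chr2:119618178-119618297 on the plus strand for Nusap1, and chr2:172370571-172370690 on the minus strand for Aurka. They lie at chr13:100786487-100786606 on the minus strand for Ccnb1 and at chr7:131560250-131560369 on the plus strand for Bub3. Those of Cdk1 and Plk1 are at chr10:69352913-69353032 on the minus strand and chr7:122159315-122159434 on the plus strand. Cdca5 had a pair of CHR matches whose first bases were at -17 and -9 from the start, and no CCAAT box. Aurka and Ccnb1 each had a pair of CCAAT boxes, at -51 and -19 in Aurka and at -99 and -67 in Ccnb1. A CHR match of Aurka lay after the start, at 33, and Ccnb1 had none in its window. Bub3 had a CHR match at -43 between CCAAT boxes at -74 and -32 in the window printed. In its other window, counted from another start, the CHR match was at -167 and the CCAAT boxes at -198 and -156. Cdk1 had CHR matches at -71 and -15 with CCAAT boxes at -80 and -48 and a further one at -208. Plk1 had a CCAAT box at -14 and a CHR match at 31. Nusap1 had neither motif in its window. Of the 45 member windows, 34 held a CHR match (75.6%), against 19.2% of all 32851 promoter windows, and 35 held a CCAAT box (77.8%), against 37.4% of all windows. Both were present in 28 (62.2%), against 7.52% of all. The share with a CHR match was 7 of 9 windows (77.8%) for members called higher and 27 of 36 (75.0%) for members not called. These windows belong to 8 called and 32 uncalled genes, and both windows of Bub3 are counted. A CCAAT box was in 66.7% of the called and 80.6% of the uncalled windows, and both motifs were in 55.6% of the called and 63.9% of the uncalled windows. These differences were not tested. These matches describe letters in a window and do not show binding.

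In withdrawn embryos 10 of the 45 members were higher and 0 were lower. The 10 are the cyclin genes Ccna2 and Ccnb1, the kinase gene Aurka, the checkpoint genes Bub1b and Bub3, the cohesin protector gene Cdca5, the centromeric histone gene Cenpa, the kinesin genes Kif20a and Kif20b, and the spindle gene Nusap1. Their log2 fold changes, withdrawn minus supplied, ran from 0.24 to 0.37, which is 1.18-fold to 1.29-fold higher. Over all 12432 genes tested, 6.22% were called higher and 7.75% lower, so the members called higher, 22.2%, were above the background. Values are normalized log2 expression per gene. A gene was called at an adjusted p below 0.05 in a limma fit across all genes. The mean of 44 of the 45 members lay above that of the median gene, and of the 6216 genes above the median gene 10.3% were called higher.

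Most members leaned the same way without passing the test. Of the 45 log2 fold changes, 38 were positive (84.4%, against 46.6% of all genes tested) and 7 negative. Their median was 0.14, beside -0.01 over all genes tested and 0.02 over the genes above the median gene. An unadjusted p below 0.05 in the limma fit was reached by 21 of the 45 members in either direction, against 30.2% of all genes. Of the 21, 20 had a positive change and 1, Cenpk, a negative change. The groups did not overlap for Ccnb1, Aurka, Cdca5 and Kif20a, 4 of 45 members, all higher in withdrawn embryos. Over all genes 4.49% did not overlap in either direction and 2.15% did so with withdrawn embryos higher. The change was small beside that of Stra8, the inducer of meiotic entry, whose mean was 8.57 ± 0.73 in withdrawn and 10.35 ± 1.02 in supplied embryos (SD, n = 6 each).

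The calls treat the embryos as independent, and the labels do not say which shared a mother. With embryos of the same title number and diet averaged, 0 of the 45 members were called higher by limma, and 110 of all genes. A random effect shared by these embryos left 5 of the 45. The number called also depended on single embryos. Leaving out supplied replicate 5 left 3 calls, and leaving out supplied replicate 3, supplied replicate 6, withdrawn replicate 1 or withdrawn replicate 6 left 6 each. It was 0 without the 4 embryos whose titles carry the number 4, where 9 genes of the whole table were called higher, and 4 and 6 without those of number 1 and number 2. The median change of the members was positive there, at 0.09 without title number 4 and 0.11 without supplied replicate 5. Cdca5, Kif20a and Nusap1 were called in each of the 12 fits that left out 1 embryo and with the random effect. Over all 30 alternatives Cdca5 lost its call in 4, Kif20a in 3 and Nusap1 in 5. Those of Nusap1 include the exact permutation test and a threshold of 0.01. These 3 genes lost their calls with embryos averaged (adjusted p of 0.0625 for Cdca5, 0.0663 for Kif20a and 0.0596 for Nusap1). Without title number 4 their adjusted p values were 0.146 for Cdca5, 0.219 for Kif20a and 0.197 for Nusap1, and with the mean of somatic markers as a covariate they were 0.155 for Cdca5, 0.168 for Kif20a and 0.179 for Nusap1.

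**Figure D1:**
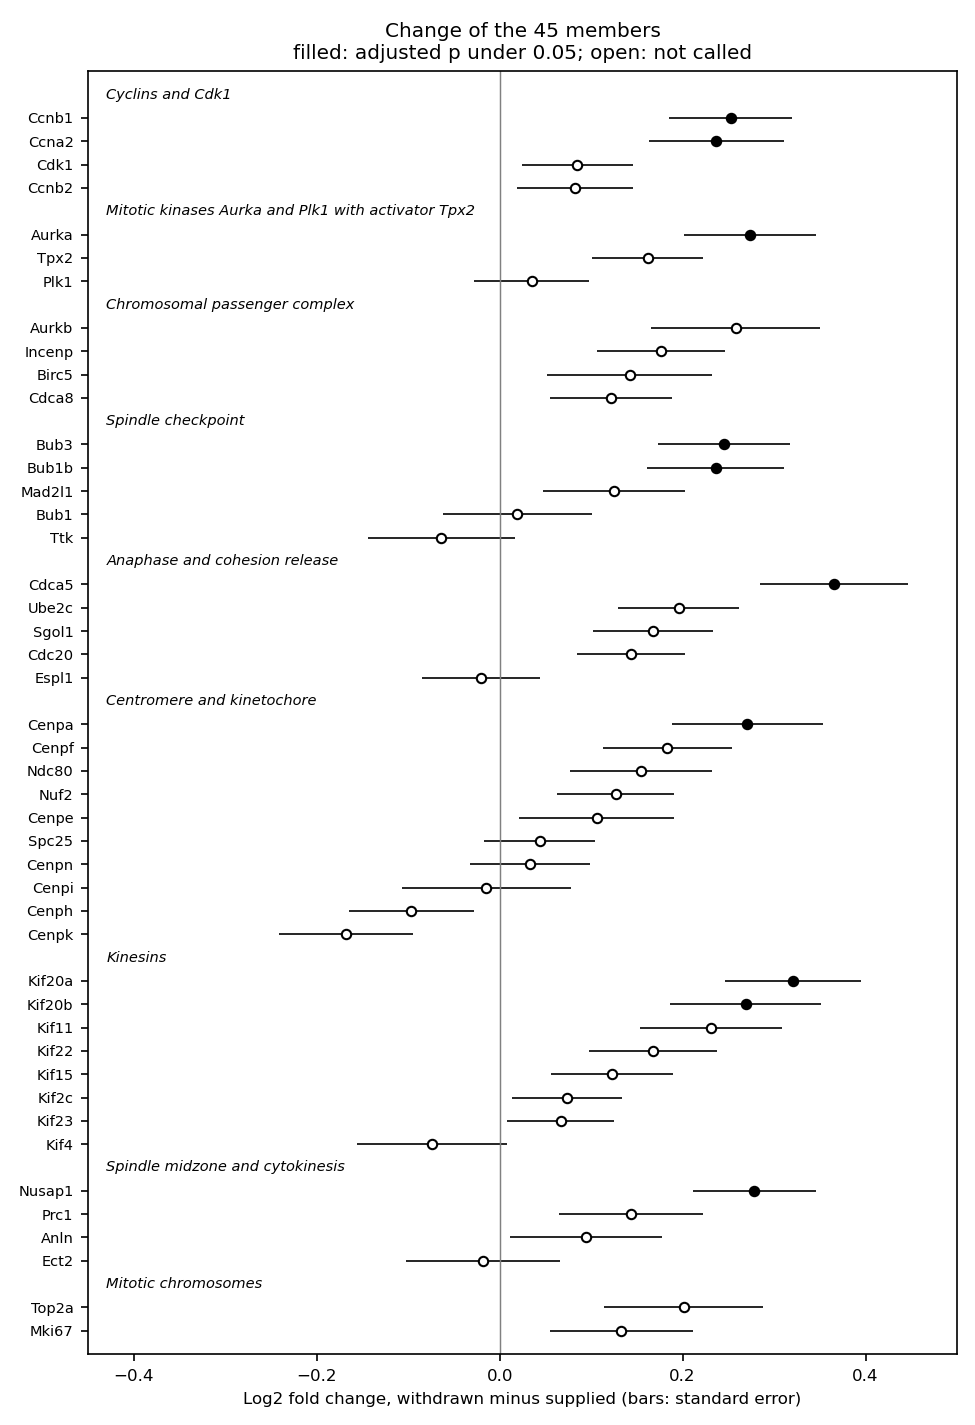
Log2 fold change, withdrawn minus supplied, of each of the 45 members (x axis), in groups by role, with the standard error as bars. The 10 filled points are the called members, all right of 0, and the 7 members left of 0 are open.

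Among the cyclins and Cdk1, 2 of 4 members rose. Ccnb1, the B-type cyclin that activates Cdk1 at mitotic entry, ranged from 10.35 to 10.54 with a median of 10.45 in withdrawn embryos, against 9.97 to 10.34 with a median of 10.24 in supplied embryos. All 6 withdrawn embryos were above all 6 supplied ones. The log2 fold change was 0.25 (SE 0.07, adjusted p = 0.0174), and the call was lost without supplied replicate 5, the lowest embryo (adjusted p = 0.0540). Ccna2, the A-type cyclin of S phase and early mitosis, had 11.68 to 12.10 (median 11.89) in withdrawn and 11.44 to 11.76 (median 11.65) in supplied embryos. Its groups overlapped, with 4 withdrawn embryos above every supplied one, and it rose by 0.24 (SE 0.07, adjusted p = 0.0346). Among the 12 fits with 1 embryo left out, 7 did not call Ccna2. Ccnb2, the other mitotic B-type cyclin, had 11.35 to 11.54 (median 11.44) in withdrawn and 11.20 to 11.48 (median 11.37) in supplied embryos, and its change was 0.08 (SE 0.06, adjusted p = 0.407). Cdk1 itself had 10.18 to 10.33 (median 10.27) in withdrawn and 10.05 to 10.28 (median 10.18) in supplied embryos, a change of 0.09 (SE 0.06, adjusted p = 0.370). For both genes the ranges overlapped widely, and neither passed.

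Of the spindle kinases and their activator, 1 of 3 members rose. Aurka, the centrosomal kinase that matures and separates the spindle poles, had 10.412 to 10.573 (median 10.45) in withdrawn and 10.011 to 10.411 (median 10.24) in supplied embryos. The lowest withdrawn and the highest supplied embryo were almost level, so the groups only just separated. Aurka rose by 0.27 (SE 0.07, adjusted p = 0.0162), and its call was lost without supplied replicate 5 (adjusted p = 0.0501). Tpx2, which targets this kinase to the spindle and activates it, was at 0.16 (SE 0.06, adjusted p = 0.0749). Plk1, a kinase of mitotic entry, centrosomes and kinetochores, had 10.05 to 10.23 (median 10.14) in withdrawn and 10.04 to 10.28 (median 10.09) in supplied embryos. Its change of 0.03 (SE 0.06, adjusted p = 0.753) was among the smallest of the members.

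In the chromosomal passenger complex, which corrects wrong attachments and later acts at the central spindle, 0 of 4 members were called by limma. The exact permutation test after adjustment also called 0, but it passed only genes whose groups did not overlap, and these 4 all overlapped. Aurkb, its kinase, had 8.63 to 8.99 (median 8.86) in withdrawn and 8.27 to 8.88 (median 8.59) in supplied embryos. The change of 0.26 (SE 0.09, adjusted p = 0.0645) was as large as that of Ccnb1 but its embryos were more spread. Incenp, the scaffold, was at 0.18 (adjusted p = 0.0924) and Cdca8, which encodes borealin, at 0.12 (adjusted p = 0.227). Birc5, which encodes survivin, had 10.05 to 10.68 (median 10.15) in withdrawn and 9.98 to 10.23 (median 10.07) in supplied embryos. A single withdrawn embryo, replicate 5, gave the highest value, and Birc5 was at 0.14 (SE 0.09, adjusted p = 0.300). An unadjusted p below 0.05 was reached by Aurkb and Incenp.

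In the spindle checkpoint 2 of 5 members rose. Bub1b, whose product BubR1 inhibits the anaphase-promoting complex, had 11.55 to 11.64 (median 11.62) in withdrawn and 11.10 to 11.61 (median 11.39) in supplied embryos. The withdrawn embryos lay close together (SD 0.03) and the supplied ones were spread (SD 0.19). Bub1b rose by 0.24 (SE 0.08, adjusted p = 0.0389) and lost its call in 8 of the 12 fits that left out 1 embryo. Bub3, which carries BubR1 to kinetochores, had 10.13 to 10.34 (median 10.23) in withdrawn and 9.80 to 10.22 (median 9.96) in supplied embryos, a rise of 0.25 (SE 0.07, adjusted p = 0.0280). Its call was lost in 6 of these 12 fits. Mad2l1, the inhibitor of Cdc20, was at 0.13 (adjusted p = 0.291), the kinetochore kinase Bub1 at 0.02 (adjusted p = 0.900) and the kinase Ttk, also known as Mps1, at -0.06 (adjusted p = 0.637).

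Among genes of anaphase and of the protection or release of cohesion 1 of 5 members rose. Cdca5, which encodes sororin, the protein that protects cohesin on sister chromatids, had 9.63 to 10.02 (median 9.81) in withdrawn and 9.16 to 9.59 (median 9.53) in supplied embryos. No embryo of either group fell within the range of the other. Its log2 fold change of 0.37 (SE 0.08, adjusted p = 0.00682), or 1.29-fold, was the largest of the 45, and it stayed between 0.31 and 0.40 when any embryo was left out. Ube2c, the ubiquitin-conjugating enzyme of the anaphase-promoting complex, had 11.03 to 11.21 (median 11.14) in withdrawn and 10.78 to 11.06 (median 10.95) in supplied embryos. At 0.20 (SE 0.07, adjusted p = 0.0504) it lay just outside the threshold. Cdc20, the activator that the checkpoint restrains, had 10.71 to 10.91 (median 10.78) in withdrawn and 10.59 to 10.73 (median 10.64) in supplied embryos, a change of 0.14 (SE 0.06, adjusted p = 0.102). Of its 6 withdrawn embryos 5 were above every supplied one. Sgol1, whose product shugoshin shields centromeric cohesin, was at 0.17 (adjusted p = 0.0909). Espl1, the gene of separase, which cleaves cohesin, was at -0.02 (adjusted p = 0.864).

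The 10 centromere and kinetochore genes, with 1 higher, 0 lower and 7 positive changes, had the lowest median change of the role groups, 0.07. Cenpa, the histone H3 variant that marks centromeres, had 10.77 to 11.22 (median 10.97) in withdrawn and 10.47 to 10.94 (median 10.68) in supplied embryos. The groups overlapped, and the rise was 0.27 (SE 0.08, adjusted p = 0.0314), a call lost in 6 of the 12 fits that left out 1 embryo. Of the outer kinetochore genes that hold microtubules, Ndc80 was at 0.15 and Nuf2 at 0.13, and their partner Spc25 was at 0.04 (adjusted p values of 0.184, 0.189 and 0.667). Cenpf, a large kinetochore and matrix protein, was at 0.18 (adjusted p = 0.0839), and the kinesin-like motor Cenpe at 0.11 (adjusted p = 0.425). The 4 members of the constitutive centromere network, which joins centromeric chromatin to the outer kinetochore, did not pass. They were Cenpn at 0.03, Cenpi at -0.01, Cenph at -0.10 (adjusted p = 0.360) and Cenpk at -0.17 (SE 0.07, adjusted p = 0.125). Cenpk had the lowest change of the 45 and the reverse order of groups, with 7.12 to 7.35 (median 7.24) in withdrawn and 7.22 to 7.59 (median 7.40) in supplied embryos. Cenph had 9.33 to 9.66 (median 9.45) in withdrawn and 9.46 to 9.66 (median 9.57) in supplied embryos.

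Of the 8 kinesin genes 2 rose, and 7 of 8 changes were positive. Kif20a, the motor that carries the passenger complex to the central spindle, had 11.63 to 11.87 (median 11.76) in withdrawn and 11.23 to 11.61 (median 11.40) in supplied embryos. Its groups did not overlap, and the rise was 0.32 (SE 0.07, adjusted p = 0.00867), or 1.25-fold. Kif20b, a related kinesin needed for cytokinesis, had 11.867 to 12.216 (median 12.12) in withdrawn and 11.597 to 12.003 (median 11.84) in supplied embryos. Of the withdrawn embryos 5 lay above every supplied one, and Kif20b rose by 0.27 (SE 0.08, adjusted p = 0.0335), a call lost in 7 of the 12 fits that left out 1 embryo. Kif11, the bipolar motor that pushes the spindle poles apart, had 12.25 to 12.62 (median 12.47) in withdrawn and 12.04 to 12.50 (median 12.17) in supplied embryos. At 0.23 (SE 0.08, adjusted p = 0.0501) it was the nearest member outside the threshold. Kif22, a chromosome-arm motor, was at 0.17, Kif15, which supports Kif11, at 0.12, the microtubule depolymerase Kif2c at 0.07 and Kif23, a motor of the central spindle, at 0.07. Kif4, a chromosome-bound kinesin, had 10.55 to 11.01 (median 10.72) in withdrawn and 10.62 to 10.98 (median 10.79) in supplied embryos and was at -0.07 (adjusted p = 0.580).

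In the group of the midzone and cytokinesis genes Prc1, Anln and Ect2 with the spindle gene Nusap1, 1 of 4 rose, Nusap1. Nusap1, which binds and stabilizes spindle microtubules near chromosomes, had 10.869 to 11.029 (median 10.95) in withdrawn and 10.514 to 10.871 (median 10.67) in supplied embryos. The lowest withdrawn embryo fell 0.002 short of the highest supplied one, so the groups touched. Nusap1 rose by 0.28 (SE 0.07, adjusted p = 0.0109). Prc1, the microtubule bundler of the central spindle, was at 0.14 (adjusted p = 0.224), the ring scaffold Anln at 0.09 (adjusted p = 0.475) and the cytokinesis gene Ect2 at -0.02 (adjusted p = 0.908). The general markers of cycling cells did not pass. Mki67, which coats mitotic chromosomes and is used as a proliferation marker, had 14.42 to 14.75 (median 14.60) in withdrawn and 14.16 to 14.64 (median 14.53) in supplied embryos, a change of 0.13 (SE 0.08, adjusted p = 0.260). Top2a, the topoisomerase that untangles chromosomes, had 13.73 to 14.07 (median 13.96) in withdrawn and 13.57 to 14.13 (median 13.62) in supplied embryos, a change of 0.20 (SE 0.09, adjusted p = 0.120). In Top2a the single highest value of all 12 embryos came from supplied replicate 1. Whether called and uncalled members differ from each other in their change was not tested.

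**Figure D2:**
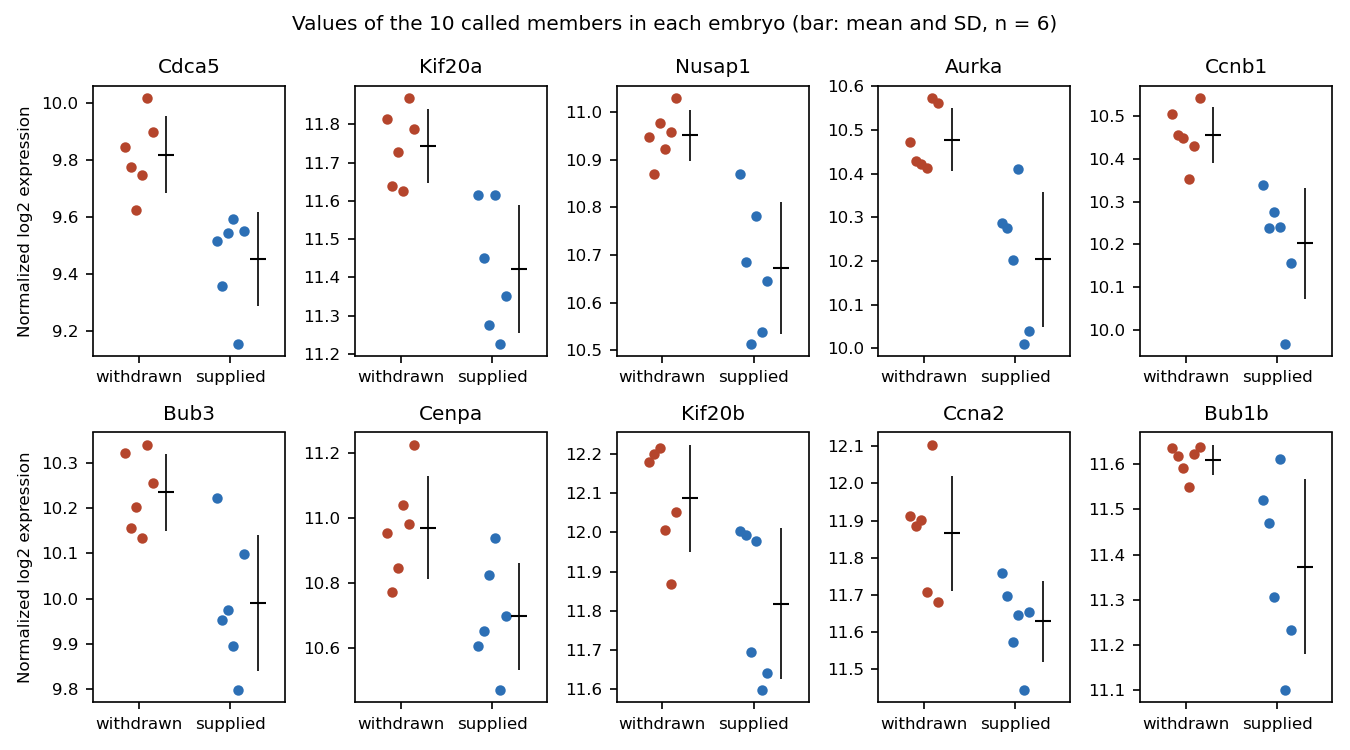
Normalized log2 expression (y axis, a scale of its own in each panel) of the 10 called members in each embryo, withdrawn left and supplied right, with the mean and SD of 6 embryos as a bar. The groups are apart in Cdca5, Kif20a, Aurka and Ccnb1 and overlap in the other 6 panels.

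In their mean over the members, supplied embryos were spread more widely than withdrawn ones, a difference in spread that was not tested. Single members went either way. The SD was larger in supplied embryos for Bub1b and Aurka, for example, and larger in withdrawn embryos for Spc25, Cenpi and Birc5. The mean over the 45 members ranged from 10.97 to 11.07 in withdrawn embryos (SD 0.04) and from 10.77 to 11.02 in supplied embryos (SD 0.09). Supplied replicate 5 was the lowest of all 12 embryos for 21 of the 45 members and among the lowest 3 for 36. Supplied replicate 6, of the same title number, was among the lowest 3 for 25, and supplied replicate 3 for 22. At the other end, withdrawn replicates 3 and 6 each gave the highest value for 10 members, withdrawn replicate 5 for 8 and supplied replicate 1 for 7. Supplied replicate 1, with a member mean of 11.02, lay within the withdrawn range. Withdrawn replicate 5 stood at both extremes, with the highest value for Ccna2, Cdca5 and Birc5 and the lowest for Cenpi. Supplied replicate 5 had the highest Stra8 value of the 12, 11.66, and supplied replicate 6 the next, 10.92. Among withdrawn embryos replicate 3 had both the highest member mean, 11.07, and the highest Stra8 value, 9.66. The part of Stra8 and of single embryos in the members' difference was not tested beyond the fits that left embryos out.

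**Figure D3:**
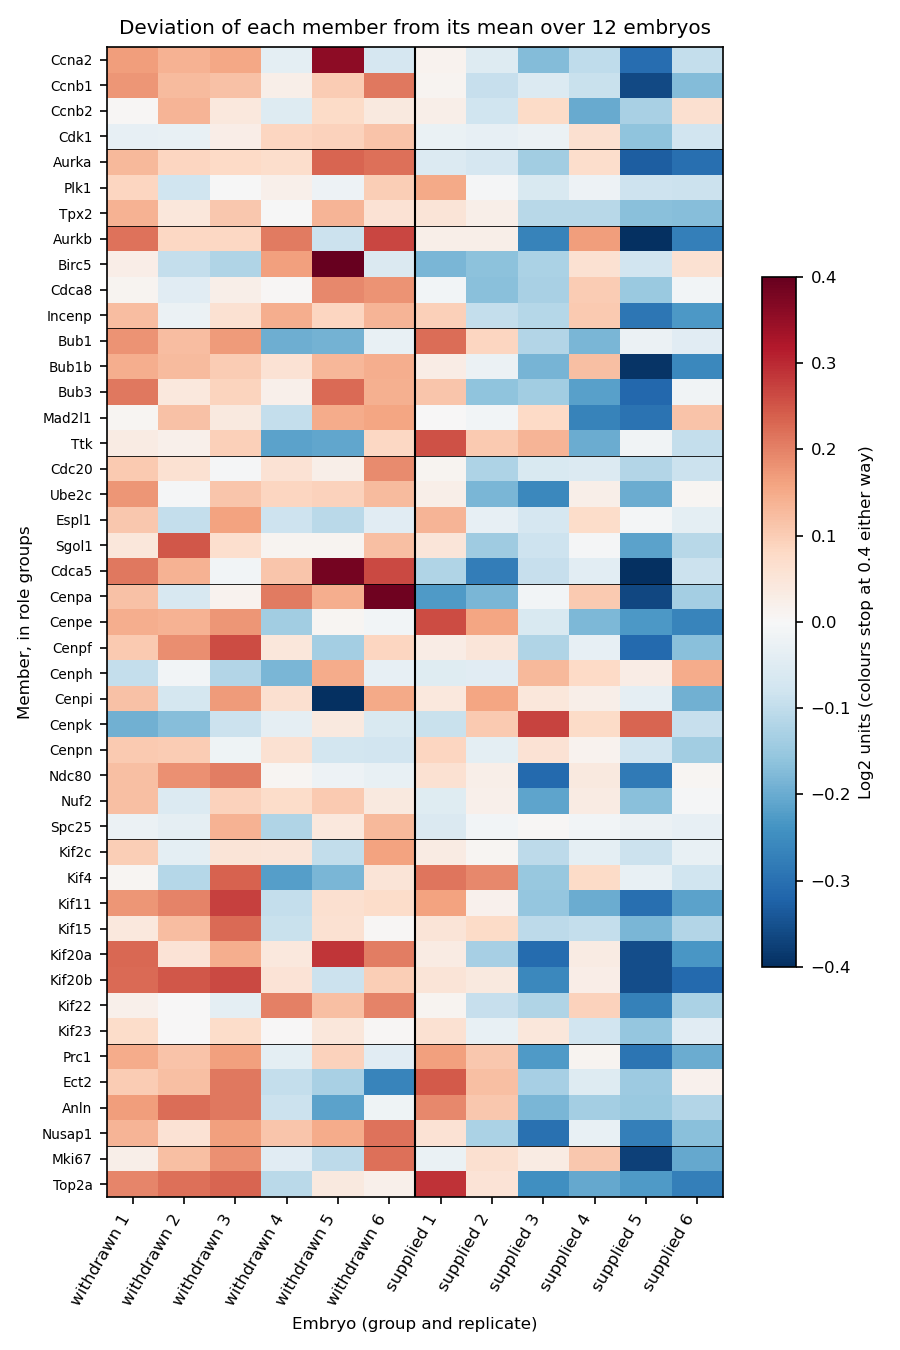
Deviation of each member from its own mean over the 12 embryos, in log2 units as colour, with members in rows by role group and embryos in columns, withdrawn left of the line and supplied right. The column of supplied replicate 5 is the lowest of the 12 in 21 rows.

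Embryo titles hold a number, 1 to 4, and each number is found among withdrawn and supplied embryos. The observed difference between the diets varied across these numbers, each with 1 or 2 embryos per diet. Whether it varied beyond the spread of single embryos was not tested. The mean over the members was 11.04 in withdrawn and 10.98 in supplied embryos of number 1, and for number 2, with 1 embryo in each group, it was 11.07 in the withdrawn and 10.87 in the supplied embryo. It was 10.97 in withdrawn and 10.94 in supplied embryos of number 3, again with 1 embryo each, and 11.03 in withdrawn and 10.81 in supplied embryos of number 4, with 2 embryos in each group as for number 1. Differences for numbers 2 and 4 were thus 0.20 and 0.22, and those for numbers 1 and 3 were 0.06 and 0.02. The 10 called members were all higher in withdrawn embryos within numbers 1, 2 and 4, and 9 of them within number 3. These 10 were picked by their difference over the same embryos, so their counts are no separate support. Of all 45 members 33, 39, 32 and 37 were higher within numbers 1, 2, 3 and 4. The share of all genes that were higher within each number was not counted.

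The libraries were alike, with correlations across genes from 0.987 to 0.999, and carried germ cell markers at high values. Of 13 germ cell markers 11 lay above the median gene, and the list changed in both directions, with 6 called higher and 3 lower. Pou5f1, which encodes the sorting factor Oct4, was higher in withdrawn embryos (12.999 ± 0.205 in withdrawn and 12.55 ± 0.21 in supplied embryos, log2 fold change 0.45, adjusted p = 0.00505). Dazl and Ddx4, germ cell RNA-binding genes, fell, with changes of -0.43 for Dazl and -0.34 for Ddx4 (adjusted p values of 0.0212 and 0.0362). Mael, which acts in transposon silencing in germ cells, fell furthest (9.02 ± 0.32 in withdrawn and 9.78 ± 0.28 in supplied embryos, log2 fold change -0.77, adjusted p = 0.00209) and was called in each of the 30 alternatives. The others called higher were Dppa5a at 0.49, Tfap2c at 0.39, Prdm1 at 0.26, Dppa3 at 0.23 and Dnd1 at 0.23. In a sorted population a different share of cells in mitosis and a different amount of RNA per cell cannot be told apart. Calls of somatic markers stand beside 7.75% of all genes called lower and 6.22% called higher. All 15 markers of ovarian supporting cells that were tested had negative changes, and 3 were called lower, Emx2, Kitl and Podxl. In Podxl (-0.37, adjusted p = 0.00644) the groups did not overlap. Epcam, taken from the mesonephric list, was called higher (0.22, adjusted p = 0.0290), with means of 11.24 in withdrawn and 11.02 in supplied embryos. Which cells its RNA came from was not tested. The summed value of the supporting markers ranged from 81.5 to 84.2 in withdrawn and from 83.0 to 86.4 in supplied embryos. All 6 mesenchymal markers were negative, 1 of them called lower (Fbln1), with sums of 35.9 to 36.6 in withdrawn and 36.0 to 38.5 in supplied embryos. Above the median gene lay 1 of the 15 supporting markers (Cbx2), 1 of the 6 mesenchymal (Fbln1), 1 of 7 endothelial (Pecam1), 0 of 3 macrophage markers and 2 of 5 markers of the mesonephros, Cdh1 and Epcam. The table held 0 of 10 red blood cell markers, and 0 of its values equalled 0. Endothelial sums were 38.2 to 38.7 in withdrawn and 37.7 to 39.1 in supplied embryos, macrophage sums 14.4 to 14.9 in withdrawn and 14.7 to 15.7 in supplied embryos, and mesonephric sums 36.7 to 37.5 in withdrawn and 36.1 to 37.3 in supplied embryos. With the mean of the 36 somatic markers as a covariate, 0 of the 45 members and 11 of all genes were called higher by limma. The median change of the members was then 0.11. The 36 include Cbx2, Fbln1, Pecam1, Cdh1 and Epcam, which lay above the median gene in these sorted germ cells. Whether the covariate follows somatic cells alone was not tested.

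**Figure D4:**
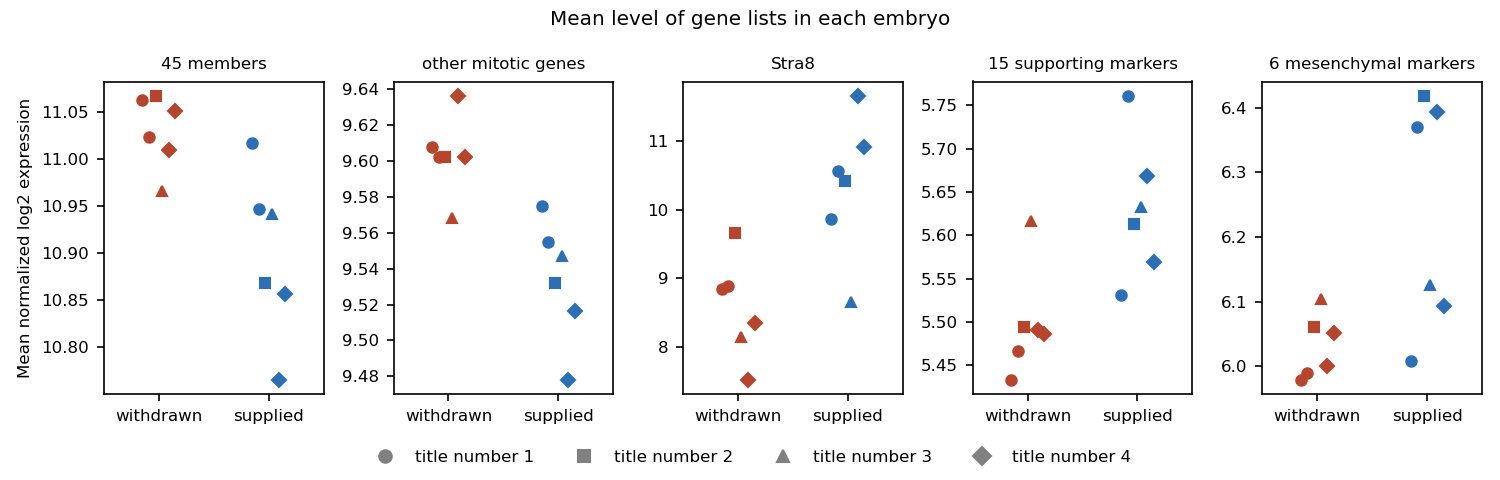
Mean normalized log2 expression (y axis, a scale of its own in each panel) of gene lists in each embryo, and of Stra8 alone, withdrawn left and supplied right, with the title number as the symbol. The member mean is lowest in supplied replicate 5, at 10.77, and the supporting and mesenchymal markers lean the other way.

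Other genes of mitosis, 119 in 6 lists that hold no member, were examined next. Of these 14 were higher (11.8%, against 6.22% of all genes) and 0 lower. Of the 119 changes 81 were positive (68.1%, against 46.6% of all genes), and the median was 0.05. Of the 96 that lay above the median gene 13 were higher (13.5%), against 10.3% of all genes above it. The count of 14 was 7 without supplied replicate 5 or without title number 1 and 1 without title number 4. Genes of Cdk1 control and mitotic entry had the most calls, 6 of 18 (33.3%). Cdc25c, the phosphatase that activates Cdk1, had 7.40 to 7.68 in withdrawn and 7.09 to 7.28 in supplied embryos and rose by 0.38 (SE 0.07, adjusted p = 0.00219). The Cdk1-binding gene Cks2 rose by 0.37, Gtse1, expressed in S phase and G2, by 0.29 and the centrosomal kinase Nek2 by 0.24, a call lost without supplied replicate 5. Of these 4 genes, Cdc25c and Cks2 had groups that did not overlap.

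Among 31 further kinetochore genes 3 rose (9.68%, against 6.22% of all genes), and 22 changes were positive and 9 negative. Zw10, which brings dynein to kinetochores and also acts in vesicle transport, had 9.59 to 9.94 in withdrawn and 9.06 to 9.39 in supplied embryos. It rose by 0.46 (SE 0.08, adjusted p = 0.00183), more than any member, and was called in each of the 30 alternatives. Spc24, the partner of Spc25 in the Ndc80 complex, rose by 0.33 (adjusted p = 0.00606), and Sgol2, which protects centromeric cohesin in meiosis, by 0.35 (adjusted p = 0.0209). The call of Sgol2 was lost without supplied replicate 3, 5 or 6. Cenpx, listed as Stra13, was at 0.20 (adjusted p = 0.0648). The lowest change of the 31 was that of Mad1l1, at -0.23 (adjusted p = 0.0809). Spdl1, listed as Ccdc99, was at -0.18 (adjusted p = 0.0760). Of 8 condensin subunits, which compact mitotic chromosomes, 1 rose (12.5%). The called subunit was Ncapd2, at 0.28 (adjusted p = 0.0126), whereas Ncaph was at 0.11, Smc2 at 0.13 and Ncapg at 0.07.

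In the anaphase-promoting complex and its regulators 1 of 18 rose (5.56%, against 6.22% of all genes), and 15 changes were positive. Fbxo5, which encodes the inhibitor Emi1, rose by 0.27 (adjusted p = 0.0194), a call lost without supplied replicate 5. The conjugating enzyme Ube2s was at 0.22 (adjusted p = 0.0530), the activator Fzr1 at 0.25 (adjusted p = 0.0789) and the subunit Anapc10 at 0.19 (adjusted p = 0.0844). Of 29 further spindle and cytokinesis genes 1 rose (3.45%, against 6.22% of all genes) and the median was -0.02. Dlgap5, a stabilizer of spindle microtubules, was the called gene (0.31, adjusted p = 0.0103). Tacc3 and Kif18b were at 0.18 and 0.23, and Haus7, of the augmin complex, was at -0.20 (adjusted p values of 0.0603, 0.0646 and 0.0614).

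Of 15 transcription factors of late cell cycle genes 2 rose (13.3%, against 6.22% of all genes). Mybl2, which encodes B-Myb, had 11.97 to 12.49 (median 12.17) in withdrawn and 11.51 to 12.24 (median 11.81) in supplied embryos. The groups overlapped, and it rose by 0.36 (SE 0.10, adjusted p = 0.0188), a call lost without supplied replicate 5 (adjusted p = 0.0566). Nfya, a subunit of the CCAAT-binding factor NF-Y, rose by 0.27 (adjusted p = 0.0261), a call lost in 5 of the 12 fits that left out 1 embryo, and its partner Nfyb was at 0.18 (adjusted p = 0.121). Foxm1, a forkhead activator of mitotic genes, had 10.25 to 10.42 (median 10.30) in withdrawn and 10.27 to 10.55 (median 10.43) in supplied embryos. Its change was -0.11 (SE 0.06, adjusted p = 0.273).

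**Figure D5:**
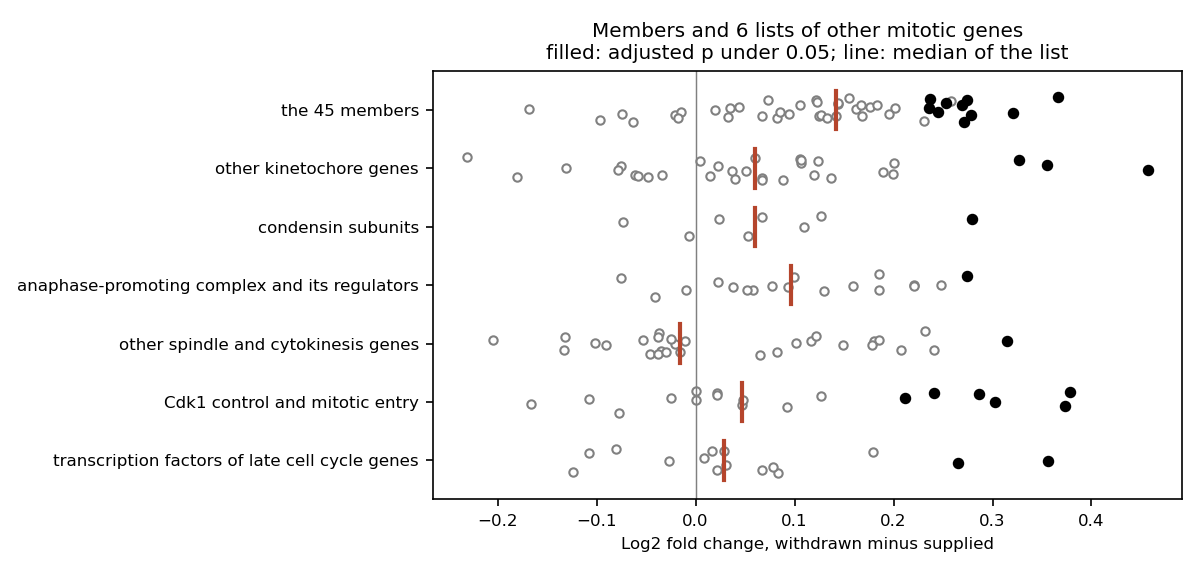
Log2 fold change, withdrawn minus supplied, of the 45 members and of the genes of 6 other mitotic lists (x axis), each point a gene, filled where called, with the list median as a line. The member median is 0.14, and the medians of the other lists run from -0.02 to 0.10.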

How the data were processed

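RNA of sorted germ cells from 12 single embryos was sequenced, 6 withdrawn and 6 supplied. The authors deposited a table of log2 expression, normalized, in which 12516 symbols have 1 value per embryo. The submitters' processing notes name DESeq2 1.10.1, TopHat2 2.0.13, Trim Galore 0.4.0 and FastQC, with mm9 as the build. What each did, which annotation and counter served, and how values were put on the log2 scale is not given in the sources used here. Sequencing depth is unknown, so count models were not used. If the transformation shrinks genes with few reads, their fold changes are understated. Whether values were scaled by transcript length is not given in those sources either, so levels of single genes are not ranked against each other, and a place above or below the median gene only describes this table.

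Genes with a mean of at least 3.32 (log2 of 10) were kept, 12432 of 12516, all 45 members among them. Withdrawn embryos were compared with supplied embryos by limma 3.58.1 in R 4.3.3, with a variance trend, two-sided. P values were adjusted by Benjamini-Hochberg across the genes kept. The fit was tested on simulated data. The exact permutation test per gene used all 924 arrangements. Its smallest possible p was 0.00216, and after adjustment only genes whose groups did not overlap passed, so it repeats the count of such genes. The submitters describe 6 biological replicates per diet. If embryos that share a title number and diet share a mother, p values are too small, so alternatives averaged such embryos or gave them a shared random effect (statmod 1.5.0).

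The members and lists were chosen with earlier results of these data known. All members may be named. From each other list the 4 genes of smallest p are named, and other named genes were chosen after their values were seen. Older symbols were matched through RefSeq synonyms.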

Additional observations from a re-analysis of the deposited data

Results flagged for a closer look

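In 92 groups of 6 embryos (the 45 members and their mean, in each diet) 2 single values stood far from the rest by Dixon's ratio, where chance gives about 1 in 20. Plk1 was at 10.28 in supplied replicate 1, above the other 5 supplied embryos. Cenpi was at 9.21 in withdrawn replicate 5, below the other 5 withdrawn embryos, and its change was 0.08 without that embryo, against -0.01 with it. Neither gene was called with or without these embryos.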

How the results depend on the processing

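The count of members called higher, 10 in the main fit, was 0 with embryos of a shared title number and diet averaged. It was 5 with them tied by a random effect, 4 by the exact test and 0 with the somatic covariate. At a threshold of 0.01 it was 2, and at 0.1 it was 17. Without title numbers 1, 2 and 4 it was 4, 6 and 0. Of the 4 called without number 1, only 2 were among the 10. All genes called higher numbered 110 (188 lower) averaged, 395 (491) with the random effect, 267 (291) by the exact test, 11 (23) with the covariate, 189 (255) at 0.01, 1215 (1508) at 0.1, 325 (404) without title number 1 and 9 (40) without number 4. The 14 other mitotic genes called higher were 3 averaged, 9 by the exact test, 2 with the covariate, 4 at 0.01, 22 at 0.1, 7 without title number 1 and 1 without number 4. Those called lower were 3 at 0.1 and 1 with array weights, with the block and without title number 2 or 3. With 1 embryo left out, members called higher ranged from 3 to 14 and lower from 0 to 0, their median change from 0.11 to 0.16, all genes from 365 to 1034 higher and 443 to 1281 lower, and other mitotic genes from 7 to 20 higher and 0 to 1 lower. The cause of these shifts was not tested.

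Deviations of withdrawn and supplied embryos of the same title number correlated across genes at 0.31, -0.04, 0.21 and -0.22 for numbers 1 to 4. Whether title numbers pair the embryos was not tested. With the title number as a replicate block, 16 members were called, the 10 among them.

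Of the genes named, only uncalled ones changed sign. Cenpi was at 0.026 with array weights, 0.0095 averaged, 0.0021 with median centring, 0.094 with the covariate, 0.017 without title number 1, 0.0026 without number 4 and from -0.054 to 0.079 with 1 embryo left out. Ect2 was at 0.024 averaged, 0.0093 and 0.039 without numbers 1 and 4 and from -0.062 to 0.033 with 1 embryo left out. Bub1 was at -0.029 with quantile normalization, -0.045 with the covariate, -0.034 without number 2 and from -0.015 to 0.066 with 1 embryo left out. Spc25 was at -0.0024 with quantile normalization, Plk1 at -0.0092 without number 4, Kif4 at 0.017 without number 1 and Espl1 at 0.0067 without number 3 and from -0.054 to 0.0046 with 1 embryo left out. Precision is limited by 6 embryos a group and unknown depth.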
